A study of Mus musculus with 50 samples.

Results

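Bile acids are made from cholesterol in the hepatocyte and are secreted into bile, taken up again in the gut and returned to the liver in portal blood. The liver makes them by a classic route, whose rate is set by Cyp7a1 and whose product mix is set by Cyp8b1, and by an acidic route that Cyp27a1 opens in mitochondria. Returning bile acids activate the nuclear receptor FXR, encoded by Nr1h4, which raises the repressor SHP, encoded by Nr0b2, and the export pump BSEP, encoded by Abcb11, while a gut hormone acts on the liver through the receptor encoded by Fgfr4 to hold Cyp7a1 down. The 10 genes described here cover these steps and were taken by name: Cyp7a1, Cyp8b1 and Cyp27a1 for synthesis, Slc27a5 and Baat for joining bile acids to coenzyme A and then to taurine or glycine, Slc10a1 and Abcb11 for uptake from blood and export to bile, and Nr1h4, Nr0b2 and Fgfr4 for sensing. All 10 had a row among the 24984 genes counted.

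Gene expression was measured by RNA-seq in 38 libraries of 10 groups while ATAC-seq, in which a transposase cuts the DNA it can reach, gave open chromatin in 12 libraries of 4 groups. Untreated C57BL/6 mice gave kidney and liver at 2.5 months (young) and at 23 to 25 months (old), with 4 RNA-seq and 3 ATAC-seq libraries per tissue and age. C57BL/6 mice of 20 to 21 months that had received DMSO, a solvent, or an agent labelled 3C gave kidney and liver, with 4 RNA-seq libraries per group. Skin fibroblasts of C57BL/6 mice, labelled P9, were given DMSO or 3C, with 3 libraries each. The labels do not say what 3C or P9 is, and the methods state that the tissues of the untreated mice came from females. The labels do not say which libraries came from 1 animal, so p-values measure the spread between these libraries.

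Libraries held between 14238228 and 43704147 counted reads. The 10 hepatocyte markers checked, Alb among them, summed to between 101399 and 199192 CPM (counts scaled to library size) in every liver library and the 7 kidney tubule markers to between 14187 and 19384 CPM in every kidney library, so each tissue matched its label. Old kidney replicate 2 stood apart, with a hepatocyte marker sum of 4224 CPM, and the median marker there lay at 2.06% of its old liver level against 0.0476 to 0.0881% in the other 3 old kidneys. Replicate 1 with 3C stood apart in its clock genes in both tissues, as given below. In these bulk samples fewer cells of a type and less RNA per cell cannot be told apart.

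Of the 10 genes, 7 had a promoter sequence in the RefSeq table used (GRCm38.p6), and Cyp7a1, Slc27a5 and Baat had none there. The 250 bases that end just before the transcript start are shown for 4 of them, because the open chromatin described below differed among these genes: a peak within 1 kb of a start of the gene, though not always on the bases printed, was called only in liver libraries for Abcb11, in every library for Nr1h4, in all kidney but not all liver libraries for Nr0b2, and in few libraries for Cyp8b1. Each runs 5′ to 3′ on the gene's own strand, and capitals mark matches to the motifs searched.
Abcb11, chr2:69342617-69342866, minus strand: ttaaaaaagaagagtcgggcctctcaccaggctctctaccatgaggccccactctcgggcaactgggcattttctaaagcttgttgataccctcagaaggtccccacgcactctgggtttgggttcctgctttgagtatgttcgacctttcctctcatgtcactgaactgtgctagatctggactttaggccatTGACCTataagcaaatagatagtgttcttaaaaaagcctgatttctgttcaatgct
Nr1h4, chr10:89506659-89506908, minus strand: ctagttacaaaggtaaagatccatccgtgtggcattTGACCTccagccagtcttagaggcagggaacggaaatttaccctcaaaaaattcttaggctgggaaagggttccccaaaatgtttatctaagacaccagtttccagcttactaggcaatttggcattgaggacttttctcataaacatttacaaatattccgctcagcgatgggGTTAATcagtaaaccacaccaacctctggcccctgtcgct
Nr0b2, chr4:133553126-133553375, plus strand: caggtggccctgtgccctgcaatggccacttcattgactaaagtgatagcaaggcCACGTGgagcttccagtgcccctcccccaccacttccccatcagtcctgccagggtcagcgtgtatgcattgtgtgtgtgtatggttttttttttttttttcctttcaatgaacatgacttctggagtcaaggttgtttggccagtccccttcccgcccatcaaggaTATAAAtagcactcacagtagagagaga
Cyp8b1, chr9:121916306-121916555, minus strand: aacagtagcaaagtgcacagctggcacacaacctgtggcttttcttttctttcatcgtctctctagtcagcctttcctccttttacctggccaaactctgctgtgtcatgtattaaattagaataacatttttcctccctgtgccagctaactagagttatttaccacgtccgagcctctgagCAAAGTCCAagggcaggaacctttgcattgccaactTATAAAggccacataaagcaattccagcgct
The motifs, sought on both strands, were the nuclear receptor hexamer AGGTCA, its inverted repeat with 1 base between the copies (IR-1, the FXR element), the HNF1 core GTTAAT, the HNF4 core CAAAGTCCA, the AP-1 site TGANTCA, the E-box CACGTG and the TATA box TATAAA. The nuclear receptor hexamer stood at bases -56 to -51 of Abcb11, -214 to -209 of Nr1h4 and -87 to -82 of the inner of the windows of Slc10a1, and 14% of all 32851 windows of this length hold it. The HNF1 core at -40 to -35 of Nr1h4 is in 6.43% of windows. The HNF4 core at -67 to -59 of Cyp8b1 is in 0.384% of windows, the rarest of the motifs that the members' windows held. A TATA box stood at -31 to -26 of Cyp8b1, -28 to -23 of Nr0b2 and -128 to -123 of the outer window of Slc10a1 (12.4% of windows), and an E-box at -195 to -190 of Nr0b2 (6.02%). The IR-1 (0.00609% of windows) and the AP-1 site (6.75%) were in no member's window as spelled, and the windows of Cyp27a1 and Fgfr4 held none of the motifs. Only exact matches were sought. The Abcb11 window holds the IR-1 with 1 base changed, and its hexamer at -56 to -51 is the second copy of that repeat. Matches with 1 base changed were not counted over the windows, and binding of FXR was not tested.

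In young liver all 10 genes were expressed, and their level per length spanned a wide range. By reads per kilobase of exon, scaled to library size (RPKM), the highest was Slc27a5, the bile acid coenzyme A ligase, at 540 ± 67.5 (SD, n = 4), followed by the uptake carrier Slc10a1 at 418 ± 26.5 and the acidic-route enzyme Cyp27a1 at 298 ± 20.8. Abcb11 held 185 ± 33.4, the conjugating enzyme Baat 168 ± 6.48 and the 12-alpha-hydroxylase Cyp8b1 121 ± 39.9 RPKM. The sensors lay lower, with Nr1h4 at 54.8 ± 6.3 and Nr0b2 at 41.3 ± 8.2 RPKM. The rate-limiting enzyme Cyp7a1 was at 22.3 ± 11.3 and the receptor Fgfr4 at 9.36 ± 0.555 RPKM. Replicates spread least for Baat, with a coefficient of variation of 3.87% in CPM, and most for the classic-route enzymes Cyp8b1 (32.9%) and Cyp7a1 (50.4%).

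**Figure D1:**
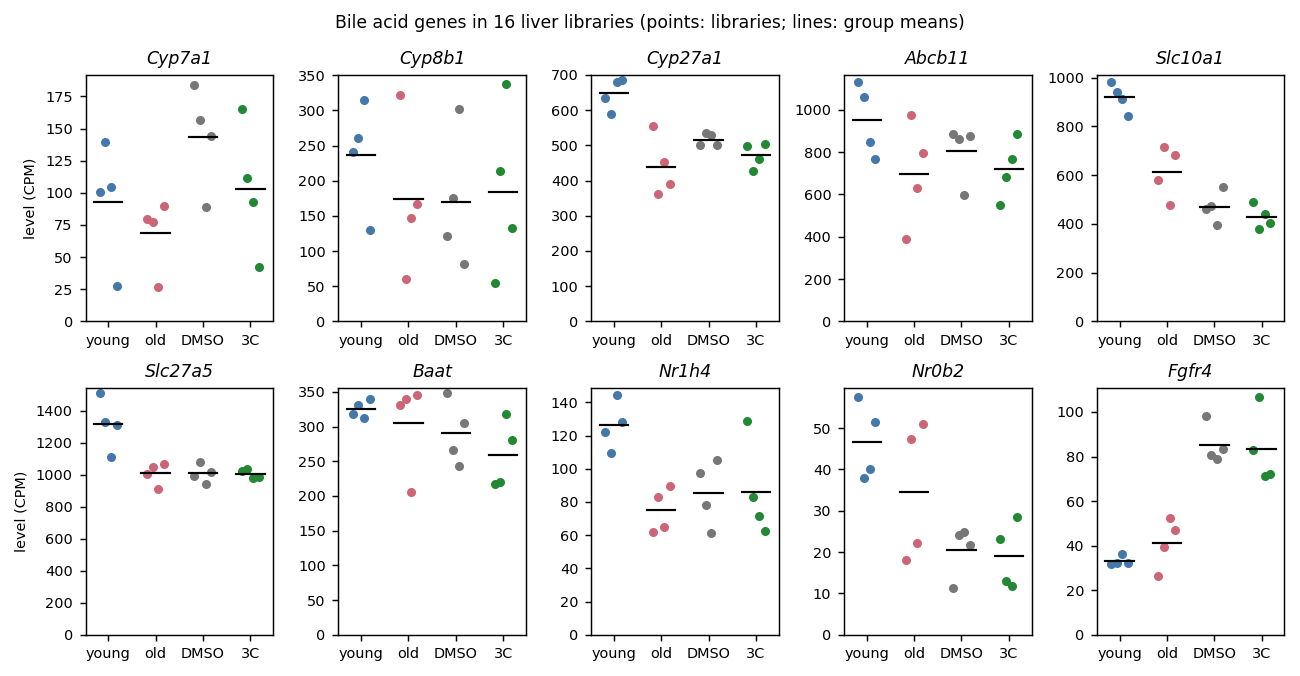
Level of each of the 10 genes in CPM (vertical axis, from 0) in the 4 liver groups, 4 libraries each; points are libraries and lines group means. Nr1h4, Slc10a1, Cyp27a1 and Slc27a5 show no overlap between young and old liver, whereas Cyp7a1 and Cyp8b1 spread widely within every group.

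The comparison of old with young liver asks how the pathway differs with age. Nr1h4, the bile acid receptor, was lower in old liver, and it was the only member past the adjusted p. The gene lies at chr10:89454234-89533585 (mm10, minus strand). Its level was 122, 109.6, 145 and 128 CPM in young liver and 62.1, 82.9, 64.8 and 89.9 CPM in old liver. Every old library lay below every young one, and the fitted log2 fold change was -0.84 ± 0.18 (SE), with a Benjamini-Hochberg adjusted p of 0.0351 by the edgeR quasi-likelihood test. This is a fold of 0.56, so it did not pass the fold threshold of 2 used by the study. None of the 10 members passed both thresholds, where 2.13% of the 12537 genes tested did. With edgeR 4 members had an unadjusted p under 0.05, as did 1846 of all 12537 genes, and DESeq2 also put 0 past both thresholds. By the adjusted p alone 1 of 10 was called, where 2.46% of all genes were, and DESeq2 called Slc10a1 as well (adjusted p = 0.00436).

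Most other members also had differences below 0, which did not pass the edgeR test. In all, 9 of 10 had a log2 fold change below 0, where 49.6% of all genes did, and the median was -0.50 against 0.00 over all genes. Slc10a1, which carries conjugated bile acids in from the blood, held 982, 941, 911 and 844 CPM in young and 579, 716, 478 and 682 CPM in old liver. These groups did not overlap, and the difference was -0.65 ± 0.19 on the log2 scale (edgeR adjusted p = 0.121). Cyp27a1 held 635, 589, 681 and 685 CPM in young and 553, 363, 452 and 389 CPM in old liver, again without overlap, at -0.59 ± 0.26 (adjusted p = 0.31). Slc27a5 held 1514, 1331, 1111 and 1312 CPM in young and 1006, 1052, 912 and 1069 CPM in old liver, at -0.44 ± 0.20 (adjusted p = 0.356). With Nr1h4 that makes 4 of 10 members whose old libraries all lay below the young ones, where 2.46% of all genes did so.

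The libraries of the classic-route enzymes overlapped between the ages. Cyp7a1, on chromosome 4 (mm10, chr4:6265612-6275633, minus strand), was at 100.6, 139.8, 104 and 27.8 CPM in young and 80.0, 77.1, 27.1 and 89.6 CPM in old liver, with 1 low library in each age. Its log2 difference of -0.45 had a 95% interval of -1.40 to 0.50, and ran from -0.70 to -0.18 with 1 library left out. Cyp8b1 was at 241, 260.2, 315 and 129 CPM in young and 321, 61.0, 147 and 168 CPM in old liver, and the old group held both the highest and the lowest value. Its interval ran from -1.42 to 0.66 and its value with 1 library left out from -1.04 to -0.09, so for both enzymes the intervals held differences in either direction. Baat, which joins bile acids to taurine, differed by -0.15 with an interval of -0.64 to 0.34, and 3 of its 4 old libraries lay between 331 and 346 CPM with the fourth at 206 CPM.

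The FXR targets and the hormone receptor overlapped between the ages. Abcb11, 3.01% of whose exon bases other genes overlap, was at 1129, 1061, 848 and 766 CPM in young and 388, 974, 629 and 797 CPM in old liver (log2 difference -0.54 ± 0.22, edgeR adjusted p = 0.286). Nr0b2 was at 57.5, 37.9, 40.2 and 51.5 CPM in young and 18.2, 47.3, 22.2 and 50.9 CPM in old liver, where 2 libraries lay at the young level and 2 well below it (-0.56 ± 0.28, adjusted p = 0.409). Fgfr4 was the only member with a difference above 0, at 31.9 to 36.1 CPM in young and 26.6 to 52.4 CPM in old liver (0.23 ± 0.18, adjusted p = 0.678).

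Markers of other cells also moved between these groups. The 6 macrophage markers summed to 473 to 681 CPM in young and 802 to 1532 CPM in old liver (2 called higher), and the 4 B and plasma cell markers to 2.27 to 3.12 and 16.9 to 68.7 CPM (4 called higher). Of the T cell, stellate cell and fibroblast, and endothelial markers 0 were called. The hepatocyte markers summed to 156544 to 199192 CPM in young liver and to 185349, 133924, 136071 and 134148 CPM in old liver, and 0 of the 10 were called. Only old replicate 1 reached the young range. The part of these cells in the members' differences was not tested. The call on Nr1h4 was lost when 1 of 5 libraries was left out, young replicates 1, 3 or 4 or old replicates 2 or 3, where the adjusted p was 0.0866 to 0.115 and the log2 fold change -0.87 to -0.74. It was also lost with scaling by library size alone (adjusted p = 0.0593). Cyp27a1 passed the adjusted p without old replicate 1, at -0.86 (adjusted p = 0.0466).

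**Figure D2:**
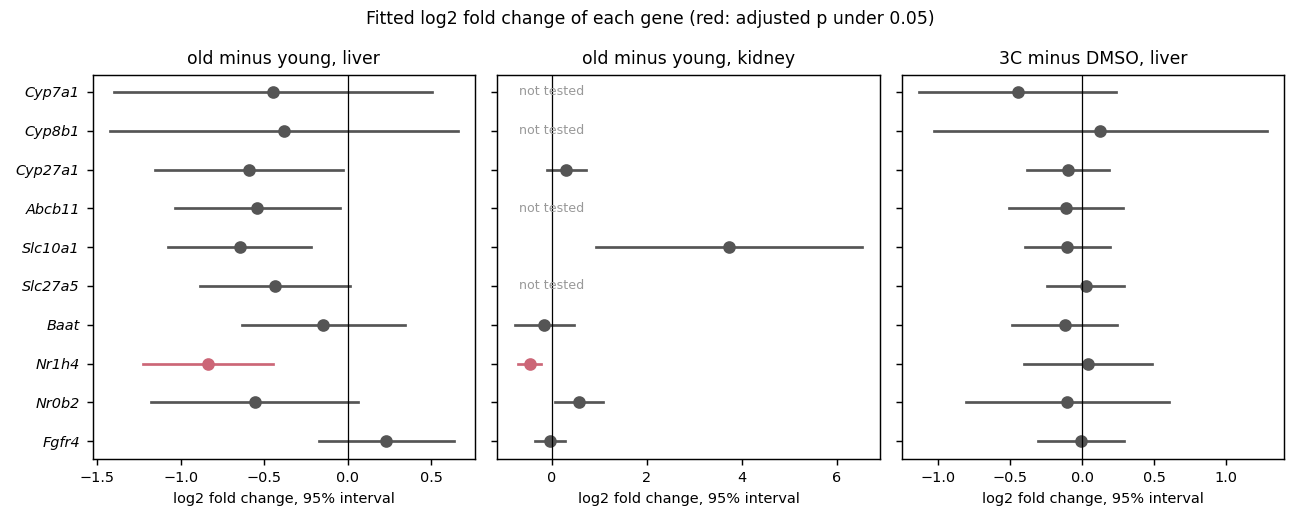
Fitted log2 fold change (points) with its 95% interval (bars) for the 10 genes in the age comparisons of liver and kidney and in the 3C comparison of liver; red marks an adjusted p under 0.05. Nr1h4 at -0.84 in liver and -0.46 in kidney is the only red gene, every interval in the 3C panel spans 0, and 4 genes were too low to be tested in kidney.

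Other genes of bile acid handling were taken from lists of the same pathway. Of 16 further transport genes tested in liver, 2 were higher and 3 lower past both thresholds, and of 14 further synthesis genes and 13 further sensing genes 0 were called in either direction. Over all 12537 genes tested, 2.13% were called. Slco1a1, a sodium-independent uptake carrier, fell from 137, 314, 382 and 211 CPM to 0.875, 1.35, 0.992 and 1.59 CPM (log2 fold change -7.84 ± 0.39, edgeR adjusted p = 5.73e-06). Abcg5 and Abcg8, the paired cholesterol exporters, fell by 1.51 and 1.28 on the log2 scale, and every old library lay below every young one for both. Slc10a2, the carrier of bile acids in ileum and bile duct, rose from 16.6 to 20.8 CPM in young liver to 34.6 to 73.3 CPM in old liver (1.40 ± 0.25, adjusted p = 0.0177). Abcc4, which exports bile acids back to blood, rose from 2.57 to 4.56 CPM to 4.51 to 17.7 CPM, where the lowest old library lay within the young range (1.53 ± 0.33, adjusted p = 0.0366). The 6 bile duct markers summed to 42.4 to 89.6 CPM in young and 45.1 to 91.5 CPM in old liver, and 0 of the 5 tested were called.

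Kidney holds few of these transcripts, and young kidney against young liver shows which. Past both thresholds 9 of 10 members were lower in kidney and 0 higher, where 42.6% of the 14057 genes tested were called, 3618 higher and 2369 lower. By the adjusted p alone 10 of 10 were lower, where 65.4% of genes were called in either direction. Of these members Cyp7a1, Cyp8b1, Abcb11, Slc10a1 and Slc27a5 passed the filter on low counts only through the liver libraries. For these 5 a lower value in kidney was therefore fixed in advance. Cyp7a1 had 0 counts in all 4 young kidneys and a pooled 93.3 CPM in liver, and was at least 2248-fold lower against a floor of 3 counts over the group. Abcb11 had 6 counts in the 4 kidneys together, Cyp8b1 9, Slc27a5 17 and Slc10a1 27, which put their pooled CPM at 11487, 1889, 5615 and 2463 times less than in liver. Young kidney replicate 4 held 4 of the 6 counts of Abcb11, 5 of the 9 of Cyp8b1 and 21 of the 27 of Slc10a1, and without it the pooled CPM was 3199 times less for Cyp8b1 and 8341 times less for Slc10a1. Abcb11 kept 2 counts without it, below the floor of 3, so its ratio there is not given and the 11487 above rests largely on that library. These 5 genes form the set that was near 0 in kidney, and their ratios are of plain CPM. The differences given next come from the edgeR fit, whose scaling differs, and by that fit Abcb11 was 21762 times lower.

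A second set was present in kidney at a lower level. Cyp27a1 was at 38.2 to 56.7 CPM in young kidney and 589 to 685 CPM in young liver (log2 difference, kidney minus liver, -4.88 ± 0.20), Baat at 8.36 to 12.8 and 312 to 340 CPM (-6.01 ± 0.19), and Nr0b2 at 2.63 to 4.16 and 37.9 to 57.5 CPM (-4.90 ± 0.22). The receptors were the exception. Nr1h4 held 83.3, 81.4, 90.5 and 90.7 CPM in young kidney, against 126 ± 14.5 CPM (SD, n = 4) in young liver, and the fitted difference was -1.64 ± 0.15 (edgeR adjusted p = 1.42e-06). Fgfr4 held 34.97, 37.6, 40.5 and 41.5 CPM in kidney and 31.9, 32.3, 36.1 and 32.4 CPM in liver, so its plain CPM was slightly higher in kidney while the fitted difference was -0.87 ± 0.13 (adjusted p = 1.25e-04). The sign for Fgfr4 turned with the scaling: with library size alone it was 0.22 (adjusted p = 0.101), and that choice moves the median of all genes from 0.08 to 1.16. Nr1h4 was lower in kidney under both, at -0.54 with library size alone (adjusted p = 0.00137), where it did not pass the fold threshold. With library size alone 8 members were past both thresholds and 9 past the adjusted p. Of the other bile acid genes, 11 of 14 synthesis genes were lower in kidney and 0 higher, 12 of 18 transport genes lower and 5 higher, and 9 of 14 sensing genes lower and 1 higher, where 42.6% of all 14057 genes were called. The 5 with the smallest p were all lower in kidney, the uptake carrier Slco1b2, the exporters Abcg8 and Abcg5, and the synthesis enzymes Hsd3b7 and Akr1c6. Exons of other genes overlap 99.2% of those of Hsd3b7, and counts without strand cannot tell them apart.

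**Figure D3:**
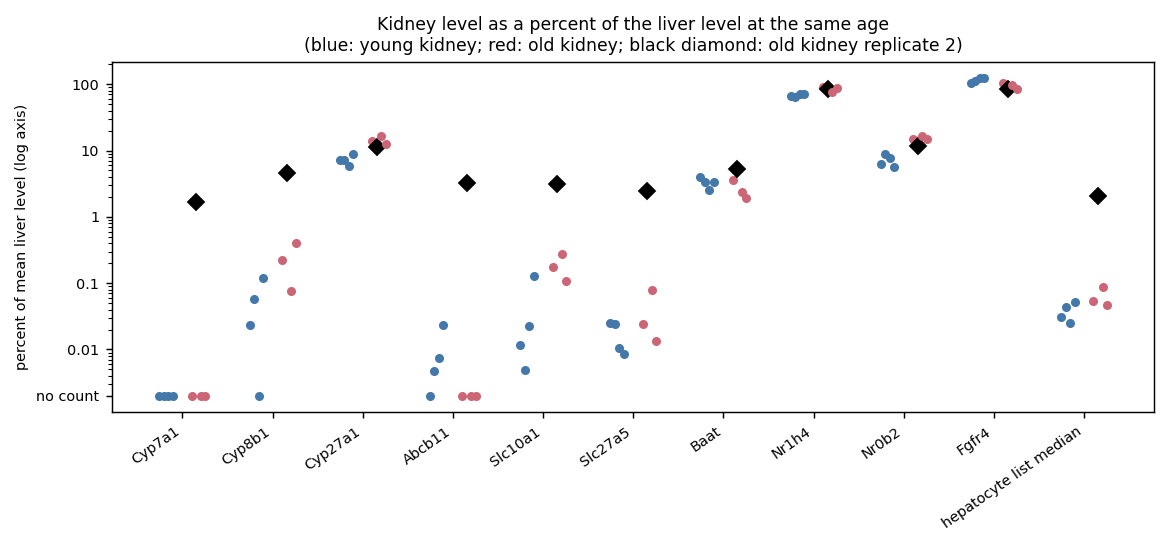
Level in each of 8 untreated kidney libraries as a percent of the mean liver level at the same age (log axis, with libraries at 0 counts at the bottom), for the 10 genes and the median hepatocyte marker. Old kidney replicate 2 (diamonds) holds 1.69 to 4.51% for the 5 genes that are near 0 in the other kidneys, while Nr1h4 lies at 64.6 to 91.9% and Fgfr4 at 83.8 to 125% in plain CPM, while the fitted log2 differences of young kidney from young liver were -1.64 and -0.87.

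Old kidney replicate 2 has to be set beside every kidney value of the liver genes. It held 22.9 CPM of Abcb11, where the other 3 old kidneys held 0 counts, and 25.0 CPM of Slc27a5 against 0.137 to 0.804 CPM. For Slc10a1 it held 18.9 CPM against 0.664 to 1.70, for Cyp8b1 7.85 against 0.134 to 0.709, and for Cyp7a1 1.16 CPM against 0 counts. As a share of the mean old liver level these were 3.29% for Abcb11, 2.48% for Slc27a5, 3.08% for Slc10a1, 4.51% for Cyp8b1 and 1.69% for Cyp7a1. The 10 hepatocyte markers in the same library lay at 1.43 to 3.58%. Baat was also highest there among the old kidneys, at 15.9 CPM, which was 5.19% of the old liver level against 1.95 to 3.58% in the other 3. Nr1h4, Fgfr4, Cyp27a1 and Nr0b2 in this library were within or next to the range of the other old kidneys, at 64.1, 35.6, 50.0 and 4.09 CPM.

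In the age comparison of kidney 6 of 10 members passed the filter on low counts, and Nr1h4 was again lower in old tissue. It held 83.3, 81.4, 90.5 and 90.7 CPM in young kidney and 68.8, 64.1, 58.1 and 66.4 CPM in old kidney, with no overlap. The log2 fold change was -0.46 ± 0.11 (edgeR adjusted p = 0.0217), a fold of 0.73. It was -0.43 without old kidney replicate 2 (adjusted p = 0.0274), while the call was lost without young replicate 3 (adjusted p = 0.0595) or old replicate 4 (0.0735). By the adjusted p alone 1 of 6 tested members was called, where 11.5% of the 14495 genes were. None of the 6 passed both thresholds with edgeR or with DESeq2, where 6.08% of genes did with edgeR, and 3, Nr1h4, Nr0b2 and Slc10a1, had an unadjusted p under 0.05, as did 4360 of all 14495 genes. Nr1h4 was the only member whose old libraries all lay below the young ones, which 3.85% of genes did.

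The other 5 tested members overlapped between the ages in kidney. Nr0b2 was at 2.63 to 4.16 CPM in young and 4.09 to 5.81 CPM in old kidney (0.58 ± 0.23, edgeR adjusted p = 0.129), and Cyp27a1 at 38.2 to 56.7 and 50.0 to 71.6 CPM (0.31 ± 0.18, adjusted p = 0.262). Baat was at 8.36 to 12.8 and 5.97 to 15.9 CPM, with a log2 value of -0.15 that was -0.42 without old kidney replicate 2, and Fgfr4 at 34.97 to 41.5 and 34.7 to 43.2 CPM. The fitted log2 value of Slc10a1, 3.74 ± 1.26 (adjusted p = 0.0843), rested on old kidney replicate 2, was 1.54 without it (adjusted p = 0.212), and reached 5.50 with an adjusted p of 0.0458 without young kidney replicate 4. Slc10a1 entered the test only through the old group, and Cyp7a1, Cyp8b1, Abcb11 and Slc27a5 were too low to be tested. Markers of several cell types moved between these kidneys. The kidney tubule markers summed to 15618 to 19384 CPM in young and 14187 to 16392 CPM in old kidney, and 2 of 7 were lower by the adjusted p alone. The macrophage markers summed to 114 to 131 and 519 to 1213 CPM (5 of 5 tested called higher), the B and plasma cell markers to 4.99 to 9.95 and 359 to 524 CPM (4 of 4), and the T cell markers to 2.24 to 3.08 and 8.13 to 14.6 CPM (2 of 3). The endothelial markers summed to 184 to 272 and 143 to 267 CPM, and 1 of 4 was called lower. The 6 genes of the bile duct list summed to 2192 to 2351 and 3066 to 4912 CPM (0 of 6, and 1 higher by the adjusted p alone). In young liver their sum was 42.4 to 89.6 CPM, so in kidney they cannot be read as bile duct markers. Their part in the members' values was not tested.

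Of the wider lists in kidney, Ch25h, a cholesterol 25-hydroxylase, rose from 0.351 to 1.12 CPM to 2.95 to 8.08 CPM (2.68 ± 0.44, adjusted p = 0.00451), and it passed the filter on low counts only through the old group. Akr1d1, the bile acid 5-beta-reductase, fell from 30.5 to 52.9 CPM to 17.5 to 23.5 CPM (-1.04 ± 0.18, adjusted p = 0.00543), and S1pr2, a receptor that also responds to conjugated bile acids, rose by 1.08 ± 0.27 (adjusted p = 0.0304). These were the only genes past both thresholds among 12 synthesis, 14 transport and 12 sensing genes tested, where 6.08% of all 14495 genes passed.

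An interaction test set the age effect of each member in liver against that in kidney, and none of the 10 passed with edgeR, where 1.72% of the 15036 genes did. For Nr1h4 the liver effect minus the kidney effect was -0.34 with a 95% interval of -0.76 to 0.09 (edgeR adjusted p = 0.486). With edgeR 6 of 10 members had an unadjusted p under 0.05, as did 2109 of all 15036 genes, and DESeq2 called 0 members. Of these 6, Abcb11, Cyp8b1 and Slc27a5 were too low to be tested in kidney by itself and passed the filter here only through liver. Slc10a1 was near 0 in young kidney. The values of these genes turn on old kidney replicate 2 as given next, and the others of the 6 were Cyp27a1 and Nr0b2. Abcb11 was at -6.32 with old kidney replicate 2 and at 3.03 without it. Without that library Slc10a1 went from -4.31 (adjusted p = 0.0963) to -2.20, Slc27a5 from -5.03 to -1.09 and Cyp8b1 from -4.34 to -2.16. Slc10a1 was at -6.04 (adjusted p = 0.0444) without young kidney replicate 4, in a fit that kept old kidney replicate 2, and its adjusted p was 0.166 without the latter.

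The mice given 3C or DMSO were 20 to 21 months old, and their files tally 0 reads of too low mapping quality where those of the untreated mice tally some, so levels are set side by side here and not tested across the series. In liver, 0 of 10 members were called by either rule, where 0% of the 13042 genes tested were, with edgeR. No member had an unadjusted p under 0.05, and DESeq2 called 0 members and 2 genes past both thresholds. Over all genes 436 had an unadjusted p under 0.05. Cyp7a1 was at 184, 156, 88.7 and 144 CPM with DMSO and 165, 112, 92.5 and 42.3 CPM with 3C (log2 difference -0.45, 95% interval -1.13 to 0.24). Cyp8b1 was at 121, 176, 301 and 81.6 CPM with DMSO and 54.2, 214, 337 and 132 CPM with 3C, with an interval of -1.03 to 1.28. Nr1h4 was at 97.7, 78.0, 61.3 and 105 CPM with DMSO and 129, 82.8, 71.3 and 62.2 CPM with 3C, with an interval of -0.40 to 0.48. The intervals were narrowest for Slc27a5 (-0.25 to 0.29) and Cyp27a1 (-0.38 to 0.18), and those of Abcb11, Slc10a1, Baat, Nr0b2 and Fgfr4 also spanned 0.

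Replicate 1 of the 3C livers differed from the rest in its clock genes. Arntl, which encodes the clock activator BMAL1, was at 1.32 CPM there against 22.7 to 38.1 CPM in the other 7 livers of that experiment. Dbp, a clock output that peaks in the opposite phase, was at 139.7 CPM against 0.176 to 3.29 CPM. Nr1d1 and Per2 were also highest there, at 149.9 and 65.2 CPM. The 3C kidney of the same number showed the same, with Arntl at 2.63 CPM against 20.1 to 42.5 and Dbp at 133 CPM against 2.42 to 19.8 CPM in the other 7 kidneys. Among the members, this liver had the highest Cyp7a1 (165 CPM), Nr1h4 (129 CPM) and Slc10a1 (490.4 CPM) of its group and the lowest Cyp8b1 (54.2 CPM), Abcb11 (549 CPM) and Baat (217 CPM). With 4 libraries in a group such extremes are common, and for 0 of the 10 members did this library pass Dixon's 95% critical value. The ratio of Cyp7a1 to Cyp8b1 by RPKM was 1.42 in it and 0.128 to 0.244 in the other 3 livers with 3C, against 0.138 to 0.824 with DMSO. Without this library the log2 difference was -0.73 for Cyp7a1, 0.43 for Cyp8b1 and -0.18 for Nr1h4, and none was called. What part the clock phase has in these values was not tested.

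**Figure D4:**
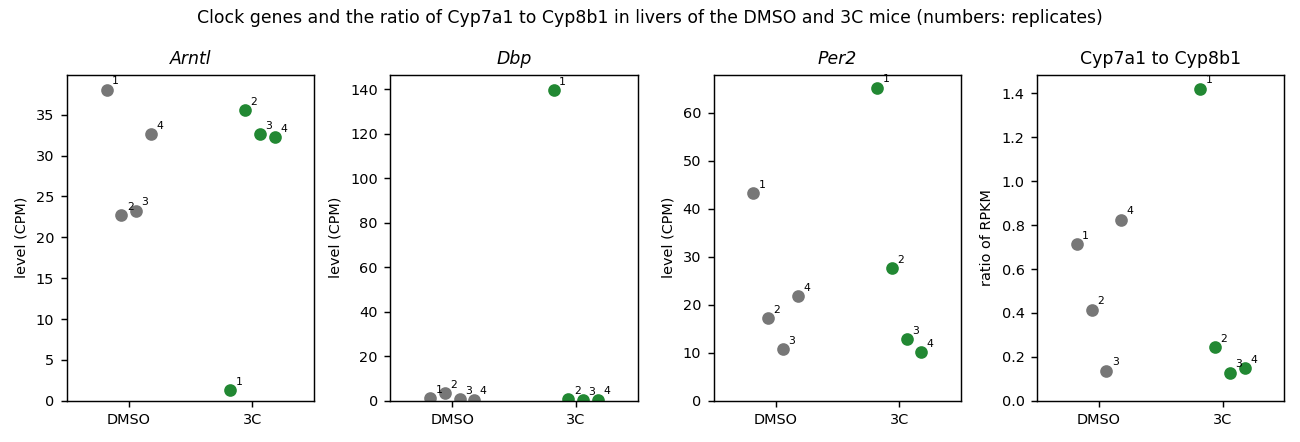
Level in CPM of the clock genes Arntl, Dbp and Per2, and the ratio of Cyp7a1 to Cyp8b1 by RPKM, in the 4 DMSO and 4 3C livers; numbers mark replicates. Replicate 1 with 3C lies apart for Arntl (1.32 CPM) and Dbp (139.7 CPM) and has the highest Per2 (65.2 CPM) and the highest ratio, 1.42 where the next is 0.824.

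Over all 16 liver libraries, after the group means were removed, no gene of 5 tested followed Cyp7a1 past the correction. The closest was Nr1h4, with Pearson r = 0.50 (permutation p = 0.0565, adjusted over the 5 genes 0.283) and Spearman rho = 0.47 (p = 0.086, adjusted 0.43). Without the 2 libraries farthest from the median of Cyp7a1, young replicate 4 and old replicate 3, r was 0.71 (permutation p = 0.0415, adjusted 0.207). Without replicate 1 of the 3C livers r was 0.38 (permutation p = 0.143) and rho 0.32 (p = 0.252). By the same permutation tests Cyp8b1 gave r = 0.01 (p = 0.983) and rho = -0.06 (p = 0.842), Nr0b2 r = -0.11 (p = 0.697) and rho = 0.02 (p = 0.955), and the clock output Dbp r = 0.21 (p = 0.515) and rho = 0.35 (p = 0.221). Arntl gave r = -0.18 (permutation p = 0.555) and rho = -0.03 (p = 0.927) with all libraries, and r = 0.58 (permutation p = 0.0605, adjusted 0.302) and rho = 0.55 (p = 0.045, adjusted 0.225) without replicate 1 of the 3C livers, so it was negative with that library and positive without it. Of 12024 genes compared, those most like Cyp7a1 across the 16 livers were Pick1 (r = 0.89), Pum3 (0.87) and Prpf31 (0.87), given as a description.

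In the kidneys of the mice given 3C or DMSO 7 of 10 members were tested and 0 were called by either rule, where 0% of the 14974 genes were with edgeR. No member had an unadjusted p under 0.05, DESeq2 called 0 members and 5 genes past both thresholds, and 1786 genes had an unadjusted p under 0.05. Nr1h4 was at 40.2, 50.8, 45.3 and 44.6 CPM with DMSO and 64.2, 40.03, 50.2 and 45.9 CPM with 3C, and the highest value was that of replicate 1 with 3C, whose clock genes stood apart. Its log2 difference of 0.18 became 0.03 without that library. Cyp27a1 lay within 54.8 to 60.7 CPM in all 8 kidneys, with an interval of -0.08 to 0.16, and Fgfr4 within 67.3 to 78.6 CPM, with an interval of -0.15 to 0.10. The test of whether 3C acted differently in liver and kidney called 0 of 10 members, where 0% of 15526 genes were called, with 1 member and 554 of all genes at an unadjusted p under 0.05 and 0 members called by DESeq2. That member was Abcb11, which had 22 counts in the 4 DMSO kidneys together and 6 in the 4 kidneys with 3C.

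Skin fibroblasts held 1 of the 10 members at a level that could be tested. Their 6 stellate cell and fibroblast markers summed to 13155 to 19482 CPM, against 181 to 756 CPM in the tissues. Cyp27a1 was at 6.73, 6.01 and 5.70 CPM with DMSO and 11.2, 8.94 and 11.1 CPM with 3C, and the groups did not overlap. The log2 difference was 0.70 ± 0.17 (edgeR adjusted p = 0.0454), a fold of 1.63. By the adjusted p alone 1 of 1 tested member was called, where 4.22% of the 13449 genes were, and by both thresholds 0 were with edgeR or DESeq2, where 1.87% of genes were. This call was lost when any of the 6 libraries was left out, at an adjusted p of 0.0744 to 0.164 and a log2 difference of 0.64 to 0.80. The 6 macrophage markers summed to 260.0 to 339 CPM with DMSO and 104 to 157 CPM with 3C, and their part in the Cyp27a1 difference was not tested. Cyp7a1, Cyp8b1 and Nr1h4 had 0 counts in all 6 libraries, and no library held more than 0.183 CPM of any of the other 6 members. Of the wider lists only Slco2b1, an uptake carrier, passed both thresholds, at 0.259 to 0.543 CPM with DMSO and 0.949 to 2.25 CPM with 3C (2.03 ± 0.48, adjusted p = 0.0413), and it passed the filter on low counts only through the libraries with 3C.

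The order of the groups by mean CPM shows which steps exceed the spread of libraries. For Cyp7a1, Cyp8b1, Cyp27a1, Abcb11, Slc10a1, Slc27a5, Baat and Nr0b2 the lowest liver group did not overlap the highest kidney group. The 4 liver groups themselves overlapped from neighbour to neighbour for Cyp7a1, Cyp8b1, Abcb11, Baat and Nr0b2. Young liver stood clear of the other liver groups for Cyp27a1, Slc10a1 and Slc27a5. For Nr1h4 young liver, at 109.6 to 145 CPM, stood clear of young kidney, the next group by mean, but overlapped 3C liver, which reached 129 CPM. Fgfr4 was ordered by experiment rather than tissue, at 67.3 to 107 CPM in the DMSO and 3C livers and kidneys and 26.6 to 52.4 CPM in the untreated ones. Nr0b2 in liver ran the other way with overlap, at 11.3 to 28.4 CPM in the DMSO and 3C mice and 18.2 to 57.5 CPM in the untreated ones. The source of these steps between the experiments cannot be told apart from their other differences.

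The ATAC-seq peaks set the accessibility of the members' promoters beside these levels. A promoter peak was a peak that the authors called in a library within 1 kb of an annotated start, and 62.9 to 68.7% of 21924 protein-coding genes had one per library. In young liver 9 of 10 members had a peak in all 3 libraries, in old liver 7, in young kidney 6 and in old kidney 5. These counts include weak peaks, down to a −log10 q of 0.732, and became 5, 2, 3 and 3 when a −log10 q of at least 5 was required. Over all protein-coding genes 58.9, 58.6, 64.4 and 62.4% had a peak in all 3 libraries of these groups, and 45.1, 45.7, 58.1 and 55.5% had one at that −log10 q. Cyp7a1, Abcb11 and Slc27a5, which were near 0 in kidney RNA, had a peak in 6 of 6 liver and 0 of 6 kidney libraries. The fold enrichment over local background of the highest peak in liver was 2.26 to 3.41 for Cyp7a1, 3.00 to 5.48 for Abcb11 and 2.78 to 4.33 for Slc27a5. Depth behind a peak is unknown in these files, and no peak means only that none was called.

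Cyp8b1 differed from these 3 genes. It was at 129 to 315 CPM in young liver, yet its promoter had a peak in 1 of 6 liver libraries (1.94-fold enrichment) and in 1 of 6 kidney libraries (3.15-fold), and its window is the one with the HNF4 core printed above. Slc10a1, also near 0 in kidney RNA, had a peak in all 3 young kidneys (2.06 to 3.28-fold), in 0 of 3 old kidneys and in 5 of 6 livers. The young kidney peaks of Slc10a1 had a −log10 q of 4.44, 0.732 and 0.884, and that of replicate 1 lay at another position (chr12:80968818-80969018) than those of replicates 2 (chr12:80967886-80968239) and 3 (chr12:80967882-80968275). Baat had a peak in all 12 libraries at 2.11 to 4.05-fold. Cyp27a1 had one in all 12, at 4.32 to 6.26-fold in liver and 4.44 to 6.70-fold in kidney.

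The receptor genes Nr1h4 and Fgfr4 had the highest mean enrichment of the 10 promoters in kidney. Nr1h4 had a peak in all 12 libraries, at 3.26, 3.22 and 5.13-fold in young liver, 4.04, 4.68 and 3.79-fold in old liver, 5.95, 8.02 and 5.19-fold in young kidney and 5.34, 7.36 and 8.18-fold in old kidney. Every kidney value lay above every liver value, whereas its RNA was lower in young kidney than in young liver and overlapped in plain CPM between old kidney and old liver, which were not tested against each other. Further, young and old libraries of a tissue overlapped, though its RNA was lower in both old tissues. Peaks were called within 1 kb of the outer start at position 89533585 of chromosome 10 and, at 2 to 2.95-fold in liver and 3.41 to 5.95-fold in kidney, within 250 bases of the inner starts at 89506658 and 89506649, whose upstream bases are printed above. Fgfr4 had a peak in all 12 libraries, at 2.88 to 6.69-fold in liver and 5.32 to 7.32-fold in kidney. Nr0b2 had a peak in 6 of 6 kidneys (1.96 to 2.82-fold) and 3 of 3 young livers (1.95 to 4.24-fold), but in 1 of 3 old livers (2.88-fold). Between ages, with 3 libraries per group, an exact two-sided permutation test cannot give a p below 0.1 for a single promoter. The contrasts of peaks between tissues were not tested, and all these values are a description.

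**Figure D5:**
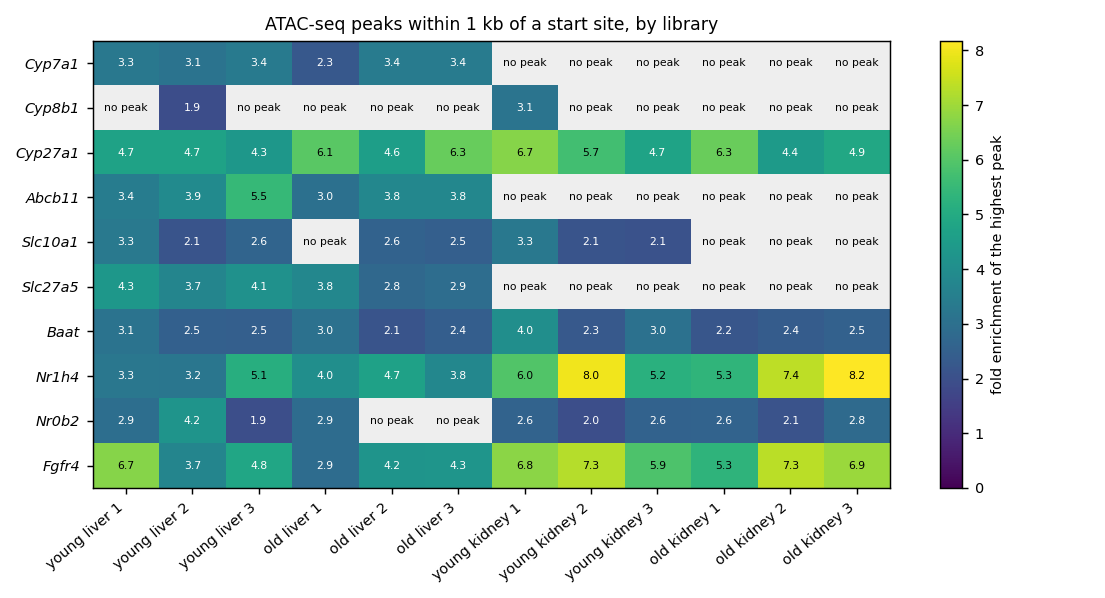
Fold enrichment of the highest ATAC-seq peak within 1 kb of a start site of each gene (rows) in each of 12 libraries (columns), with grey cells where no peak was called. Cyp7a1, Abcb11 and Slc27a5 have peaks in liver columns only, and Nr1h4 is highest in kidney columns.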

How the data were processed

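RNA-seq and ATAC-seq were analysed from the deposited files. Per the submitters' processing notes and the study's methods, the authors trimmed reads with Trimmomatic 0.39, aligned RNA-seq with HISAT2 2.2.1 to mm10 and deposited raw counts per gene made with HTSeq 0.12.4 without strand. Reads in no gene were 5.992 to 19.54% of those counted and stayed out of library sizes. ATAC-seq was aligned with Bowtie2 2.3.5.1, and the authors deposited MACS2 peaks per library with a fold enrichment and −log10 p and q values. How the DMSO and 3C mice and fibroblasts were handled is not given in the sources used here, beyond the labels.

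Counts were tested with edgeR 4.0.16 (R 4.3.3; quasi-likelihood F test, TMM scaling, genes kept by a minimum count of 10, Benjamini-Hochberg over all genes tested), 2 groups at a time, and called at an adjusted p under 0.05 with a fold above 2 or below 0.5, or by the adjusted p alone. Interactions were fitted over 16 libraries. CPM are counts scaled by the library total alone, RPKM use GENCODE vM21 exon unions, and promoter peaks lie within 1 kb of a start there. Alternatives were DESeq2 1.42.0, its size factors, no filter, a mean of at least 1 CPM, the replicate block, each library left out, a −log10 q of at least 5 and, chosen after seeing the data, library size alone. Correlations used 100000 permutations within groups, two-sided. The edgeR step was tested on simulated data.

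The members and the gene lists were chosen with earlier results of these data known. Named were all members, up to 5 further bile acid genes per comparison past both thresholds by smallest p, 4 clock genes, and the 3 genes most like Cyp7a1. Of the 6 comparisons of 2 groups, same-numbered libraries all deviated together in young kidney against young liver (r = 0.156 to 0.579 over genes), where the block changed no call. Old kidney was not checked against old liver in this way, nor kidney against liver in the DMSO and 3C groups. Intervals and floors cover the stated error only.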

Additional observations from a re-analysis of the deposited data

Results flagged for a closer look

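Of 95 sets of 4 libraries checked, each 1 gene in 1 group, 12 had a library far from the other 3. The 1 in 20 that chance gives for independent sets cannot be compared with this, because the sets share libraries. The 4 clock genes were among those checked, and replicate 1 with 3C was known beforehand to differ in them. In old kidney, replicate 2 was the highest for Cyp8b1 (7.85 CPM), Abcb11 (22.9 CPM), Slc10a1 (18.9 CPM) and Slc27a5 (25.0 CPM), and replicate 3 the lowest for Arntl (18.2 CPM). Abcb11 was lowest in DMSO liver replicate 3 (598 CPM), Baat in old liver replicate 3 (206 CPM), and Fgfr4 was highest in young liver replicate 3 (36.1 CPM). In replicate 1 with 3C, Arntl was lowest in liver (1.32 CPM), Dbp highest in liver (139.7 CPM) and kidney (133 CPM), and Per2 highest in kidney (83.7 CPM).

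The age effect differed between the tissues for 3 further transport genes by the edgeR interaction test, given as liver minus kidney on the log2 scale. Abcc4 was at 2.38 (adjusted p = 0.0074) and Slc10a2 at 2.16 (adjusted p = 0.00271), both higher in old liver and at lower mean CPM in old than in young kidney. Ephx1, which encodes microsomal epoxide hydrolase, was at -1.57 (adjusted p = 0.0199).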

How the results depend on the processing

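By the adjusted p alone 1 member was called for age in liver, 1 for age in kidney and 1 in fibroblasts, where both thresholds gave 0. That liver count was 2 with DESeq2, 0 with the replicate block, 0 with library size alone and 0 to 2 with 1 library left out. The kidney count was 0 with the replicate block and 0 to 2 with 1 library left out, and past both thresholds 0 to 1, as was the age interaction. The fibroblast count was 0 with the replicate block and 0 to 0 with 1 library left out. Under the block the adjusted p was 0.105 for Nr1h4 in liver, 0.0758 for Nr1h4 in kidney and 0.0683 for Cyp27a1 in fibroblasts. In these 3 comparisons, and in the 3C comparisons of liver and kidney, same-numbered libraries did not all deviate together, and the block changed no other call. When peaks needed a −log10 q of 5 or more, the members with a peak in every library were 5 in young liver, 2 in old liver, 3 in young kidney and 3 in old kidney.

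Signs turned with library size alone for Fgfr4 in kidney against liver (0.22), for Slc27a5 with 3C in liver (-0.0032) and for Nr0b2 with 3C in kidney (-0.0017). With 1 library left out, the values that crossed 0 ranged as follows. For age in liver, Baat ran from -0.31 to 0.0084. For age in kidney, Baat ran from -0.42 to 0.050 and Fgfr4 from -0.12 to 0.036. With 3C in liver, Cyp8b1 ran from -0.37 to 0.64, Abcb11 from -0.24 to 0.015, Slc27a5 from -0.020 to 0.056, Nr1h4 from -0.18 to 0.16, Nr0b2 from -0.38 to 0.058 and Fgfr4 from -0.15 to 0.049. With 3C in kidney, Baat ran from -0.25 to 0.16 and Nr0b2 from -0.059 to 0.078. In the age interaction, Abcb11 ran from -7.38 to 3.03 and Baat from -0.21 to 0.25. Without replicate 1 of the 3C livers, and without the 2 libraries farthest from the median of Cyp7a1 (chosen after seeing the data), the correlation with Cyp7a1 was 0.25 and -0.32 for Cyp8b1, -0.22 and 0.59 for Dbp, and 0.58 and -0.51 for Arntl. The cause was not tested.

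Over all genes, 267 were called for age in liver, 595 with DESeq2, 139 with the block and 76 to 444 with 1 library left out. The age interaction called 258 genes, 744 with DESeq2, 102 with the block and 114 to 456 with 1 library left out, and its split of 131 higher and 127 lower became 66 and 106 with library size alone. In kidney against liver that choice took 3618 higher and 2369 lower calls to 7802 and 1240. Fibroblasts gave 251 calls and 118 to 251 with 1 library left out. With 4 libraries or fewer per group, the intervals of Cyp7a1 and Cyp8b1 hold differences of over 2-fold in both age and 3C comparisons of liver.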

Other observations

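Further lists of bile acid genes were tested in the mice given 3C or DMSO. In liver 0 of 14 synthesis, 0 of 16 transport and 0 of 13 sensing genes were called by edgeR, with 1 gene, in the sensing list, at an unadjusted p under 0.05, where 436 of all 13042 genes were. In kidney 0 of 12 synthesis, 0 of 14 transport and 0 of 11 sensing genes were called, with 7 at an unadjusted p under 0.05, 4 of them sensing genes, where 1786 of all 14974 genes were.

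The clock genes also gave values outside the comparisons above. Of 14 clock genes tested in fibroblasts, 0 passed both thresholds, where 1.87% of the 13449 genes tested did. By the adjusted p alone 3 were higher with 3C, where 4.22% of all genes were called in either direction. Dbp was at 28.8, 32.9 and 34.1 CPM with DMSO and 55.0, 60.1 and 51.4 CPM with 3C, without overlap. Of 13 clock genes tested for age in liver and 14 in kidney, 0 were called by edgeR, with 2 and 9 at an unadjusted p under 0.05, as were 1846 of all 12537 genes in liver and 4360 of 14495 in kidney.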
